A study of Homo sapiens with 4 samples.

Results

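Kinesins are the motor proteins that move along microtubules, and their genes were taken here as the protein-coding genes of the GENCODE annotation on hg19 whose symbol is KIF followed by a number. There were 39 such genes among 20175 protein-coding genes. A listed m7G peak belonged to a kinesin gene when its largest exon overlap on the same strand was in that gene, which gave 35 of the 8070 peaks of the HL60 list (0.434%) and 30 of the 8122 peaks of the HL60/MX2 list (0.369%). HL60 is a human promyelocytic leukaemia line, labelled WT, and HL60/MX2 is its mitoxantrone-resistant derivative, labelled as drug-resistant cells. Both are given as acute myeloid leukaemia cells, with no treatment other than the enrichment itself. The study made 4 libraries, an input and an m7G-enriched (IP) library of each line, from poly(A) RNA that was decapped, fragmented and pulled down with an antibody against 7-methylguanosine (m7G). The analysis used the peak list of the enriched library of each line and nothing else, with 1 library per line, so no spread between replicates could be measured and no difference between the lines was tested. The lists hold positions and a score but no counts of reads, which leaves the depth unknown, and markers of the cell type were not analysed here. A gene without a listed peak may be unmethylated, weakly expressed or not sampled, which cannot be told apart in these lists.

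A kinesin couples the hydrolysis of ATP in its motor domain to steps along a microtubule. The P-loop of that domain holds the phosphates of ATP, and the switch II loop passes the state of the nucleotide on to the microtubule-binding face. Mitotic kinesins build the spindle, move chromosomes and drive the final separation of daughter cells, and they are made mostly in dividing cells such as leukaemic blasts. Transport kinesins carry vesicles, endosomes and mitochondria, and several of them are best known from neurons. The remaining members were grouped as other, among them kinesins of cilia and kinesins that limit microtubule growth. Internal m7G is a methyl group at position 7 of guanine inside the transcript, apart from the m7G of the cap.

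The sequences of the coding kinesin peaks with the highest score in each list are shown first, since the score is the only value by which the lists rank peaks. What the score measures is not given in the sources used here, so it is not read as the strength of methylation. Each is the reference sequence of hg19 on the strand of the gene, written 5′ to 3′, with capitals at the motifs searched on that strand. The CTG motifs were CTGGA, with the variant CTGGG, and CTGTA, with the variant CTGTG. The GGAA motifs were GGAAA and the variant GGAAG. The HL60 entry lay in the single exon of KIF2B, a kinesin that takes microtubules apart at kinetochores, at chr17:51900761-51900963 on the plus strand (203 bp, score 864). It covered residues 123 to 190 of the 673 residues of the protein. The HL60/MX2 entry covered the whole of exon 5 of KIF16B, a motor of early endosomes, at chr20:16493471-16493568 on the minus strand (98 bp, score 1779.8). It encoded residues 117 to 149 of 1832, between the P-loop and the switch II motif.
KIF2B, HL60: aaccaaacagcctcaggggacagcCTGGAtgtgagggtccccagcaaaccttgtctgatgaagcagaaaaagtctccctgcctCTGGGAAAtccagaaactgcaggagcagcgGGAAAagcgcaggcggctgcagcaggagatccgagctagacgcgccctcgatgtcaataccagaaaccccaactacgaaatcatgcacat
KIF16B, HL60/MX2: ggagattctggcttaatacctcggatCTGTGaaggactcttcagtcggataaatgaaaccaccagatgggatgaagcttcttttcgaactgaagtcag
In the KIF2B stretch a CTGGG overlapped a GGAAA, and both are written as a single run of capitals. The KIF16B stretch held a single match, a CTGTG.

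KIF21A, which limits microtubule growth at the cell cortex, held the closest pair of peaks of the 2 lists along an mRNA. The HL60 peak covered the whole of exon 22 of 38 (chr12:39725492-39725593, minus strand, 102 bp, score 302), and the HL60/MX2 peak lay in exon 21 (chr12:39726034-39726210, 177 bp, score 402). They were 440 bp apart in the genome and 18 nt apart in the spliced mRNA, and neither held a match of the motifs, so no base is in capitals.
KIF21A exon 21, HL60/MX2: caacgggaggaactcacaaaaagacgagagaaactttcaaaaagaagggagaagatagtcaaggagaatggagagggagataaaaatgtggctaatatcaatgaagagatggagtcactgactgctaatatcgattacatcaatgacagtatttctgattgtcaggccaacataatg
KIF21A exon 22, HL60: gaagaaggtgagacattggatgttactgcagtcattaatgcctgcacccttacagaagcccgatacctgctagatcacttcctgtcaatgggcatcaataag
The residues encoded were 953 to 1011 under the HL60/MX2 peak and 1018 to 1051 under the HL60 peak, out of 1674.

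KIF4B is an intronless copy of KIF4A, a chromokinesin that shapes chromosomes and the central spindle. Its HL60/MX2 peak (chr5:154394051-154394261, plus strand, 211 bp, score 441) was therefore set beside the same stretch of KIF4A, which is spread over exon 6 (chrX:69521865-69521916), exon 7 (chrX:69522154-69522248) and exon 8 (chrX:69549255-69549318) on the plus strand. Capitals mark the bases that differ.
KIF4B: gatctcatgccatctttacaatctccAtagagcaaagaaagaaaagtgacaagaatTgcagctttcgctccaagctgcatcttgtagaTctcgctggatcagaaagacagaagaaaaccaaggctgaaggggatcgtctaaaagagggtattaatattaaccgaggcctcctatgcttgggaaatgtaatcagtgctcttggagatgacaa
KIF4A: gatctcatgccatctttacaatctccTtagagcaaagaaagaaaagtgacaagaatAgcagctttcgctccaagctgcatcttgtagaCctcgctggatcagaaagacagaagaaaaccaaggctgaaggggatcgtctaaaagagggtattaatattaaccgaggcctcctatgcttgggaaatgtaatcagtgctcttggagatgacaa
The stretches were identical at 208 of 211 bases (98.6%), and the differences were A27T, T57A and T89C, with the KIF4B base first and positions counted from the 5′ end of the peak. KIF4A carried no peak in either list. How reads of such near-identical copies were placed by the authors' alignment is not given in the sources used here, so the KIF4B peak is uncertain as to its gene.

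Over both lists, 29 of the 39 kinesin genes had a peak. In HL60 cells, 20 genes carried a peak (51.3%, exact Clopper-Pearson 95% interval 34.8-67.6%), against 26.4% of all protein-coding genes. In HL60/MX2 cells, 22 genes carried a peak (56.4%, 39.6-72.2%), against 28.5% of all genes. Kinesin genes have many exons, with a median of 22.0 merged exons against 9 over all genes. Their median exon length was 6576 bp, where that of all genes was 4385 bp. Among the 3094 genes with 18 to 29.5 merged exons, the middle range of the kinesins, the share with a peak was 40.8% for HL60 and 43.4% for HL60/MX2, and both values lie inside the intervals of the kinesin shares. Per kb of exon there were 0.116 kinesin peaks in HL60, against 0.0694 over all genes, and 0.0994 in HL60/MX2, against 0.0699. These rates have no interval and were not set against genes of like exon number, so no enrichment of kinesins is read from them. All intervals here cover counting error only.

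Both lists named 13 kinesin genes, KIF1B, KIF3B, KIF5C, KIF6, KIF9, KIF13A, KIF13B, KIF14, KIF16B, KIF18A, KIF21A, KIF26B and KIF27, where 12.0% of all genes were named by both. The share named by both was not taken for genes of like exon number. HL60 alone listed 7 genes, and HL60/MX2 alone listed 9, namely KIF1A, KIF1C, KIF2A, KIF3C, KIF4B, KIF5B, KIF21B, KIF22 and KIF26A. The 10 genes without a peak in either list were KIF2C, KIF4A, KIF7, KIF11, KIF12, KIF17, KIF18B, KIF19, KIF20A and KIF24. These had a median of 20 merged exons (14 to 31), against 28.0 (9 to 61) for the kinesins named by both lists. More than 1 peak was listed in 9 genes in HL60 and in 6 genes in HL60/MX2.

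**Figure D1:**
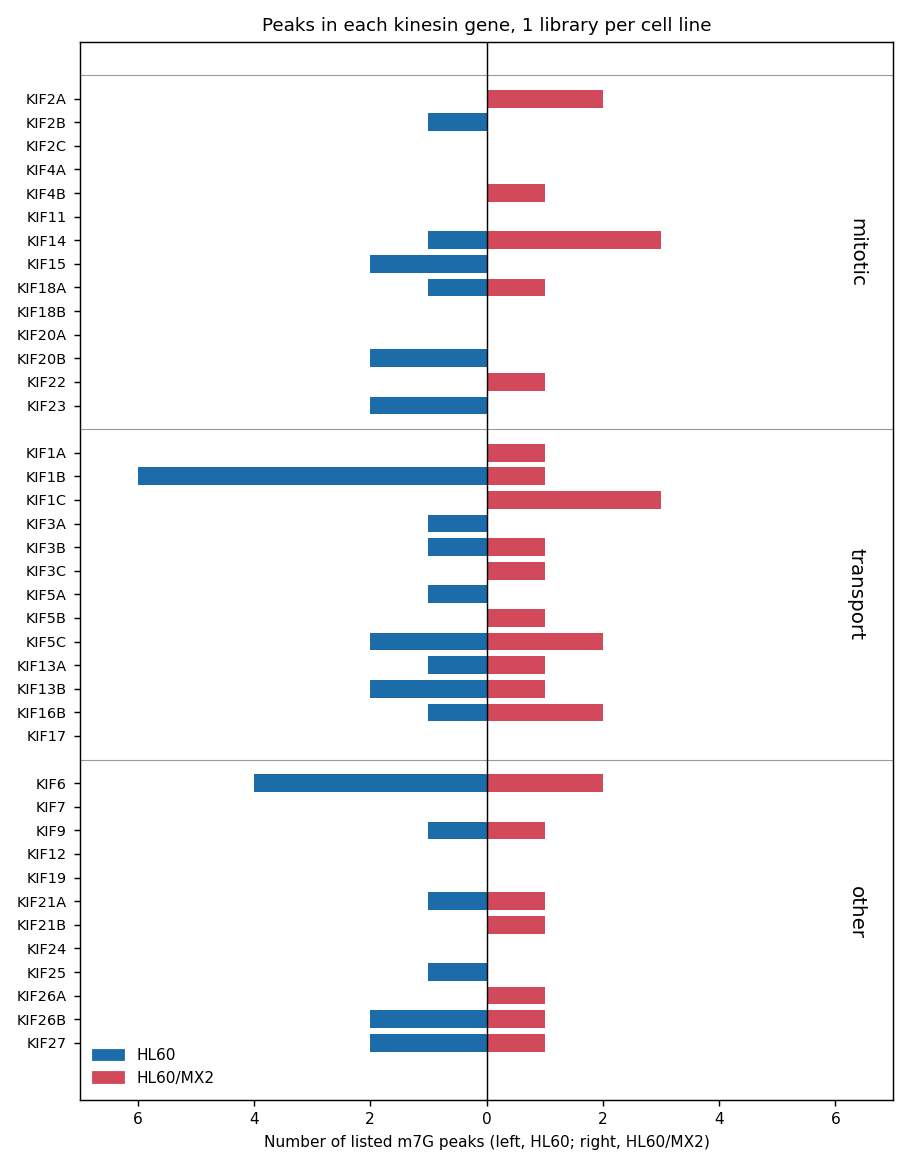
Number of listed m7G peaks in each of the 39 kinesin genes, with HL60 to the left of 0 and HL60/MX2 to the right, grouped as mitotic, transport and other kinesins, 1 library per line. KIF1B had 6 peaks in HL60 and 1 in HL60/MX2, KIF6 had 4 and 2, and 10 genes had none in either list.

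Of the 14 mitotic kinesins, 6 were listed with a peak for HL60 (42.9%, 17.7-71.1%) and 5 for HL60/MX2 (35.7%, 12.8-64.9%). KIF14 and KIF18A did so in both lists, 4 genes in HL60 only, 3 in HL60/MX2 only and 5 in neither. The lists held 9 and 8 of their peaks, or 0.113 and 0.101 per kb of exon. All 9 HL60 peaks lay in the coding sequence (CDS) of the longest coding transcript, whereas in HL60/MX2 5 did and 3 lay in exons of other transcripts only.

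The kinesin-6 family works in cytokinesis, and its peaks were all in the HL60 list, with 4 in 2 of its 3 genes. The exact intervals, 9.43-99.2% for HL60 and 0-70.8% for HL60/MX2, overlap widely. They include the 26.4% and 28.5% of all genes, so no preference for a line can be read from 3 genes. KIF23 (MKLP1), the motor subunit of centralspindlin, had 1 over the whole of exon 18 (chr15:69732647-69732826, plus strand, 180 bp, score 801, the 97.0th percentile of the list). Its other peak lay in exon 19 (chr15:69733159-69733387, 229 bp) with a score of 52.0, near the lowest score of the list. KIF20B (MPP1) carried a 77 bp peak in exon 2 of 33 (score 388) and a peak over the whole of exon 30 (102 bp, score 117), so its peaks lay at residues 24 to 49 and 1664 to 1697 of 1820. KIF20A (MKLP2), which brings the chromosomal passenger complex to the central spindle, had none.

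The spindle motors of kinesin-5 and kinesin-12 work side by side in keeping the spindle bipolar. KIF11 (Eg5) had no peak in either list. KIF15, its helper, had 2 peaks in HL60 and none in HL60/MX2, in exon 8 (100 bp, score 75.6) and exon 27 of 35 (42 bp, score 60.5). Both KIF15 scores lay in the lower part of the HL60 list, the higher of them at the 13th percentile.

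KIF14, which works at the midbody with citron kinase, had 3 peaks for HL60/MX2 and 1 for HL60. The HL60 entry was only 3 bp long (chr1:200575924-200575926, minus strand, exon 6 of 30, score 199). The HL60/MX2 peaks covered the whole of exon 4 (88 bp, score 62.8), 55 bp of exon 10 (score 149) and the whole of exon 19 (chr1:200555229-200555355, 127 bp, score 214). The HL60 entry was in none of these exons.

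KIF18A dampens the movements of chromosomes at metaphase. Its HL60 peak lay in exon 6 of 17 (chr11:28110071-28110202, minus strand, 132 bp, score 368), and its HL60/MX2 peak in exon 10 (chr11:28098691-28098716, 26 bp, score 794). The latter was the highest score of a mitotic kinesin in HL60/MX2. KIF18B, which limits the length of astral microtubules, had no peak.

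Among the kinesin-13 depolymerases, KIF2B had the HL60 peak whose sequence was given and none in HL60/MX2. KIF2A, which acts at spindle poles, had 2 peaks in HL60/MX2, both in exons of other transcripts, at chr5:61602795-61603046 (score 563) and chr5:61607640-61607708 (score 183). In those transcripts they lay in the 5′UTR and at the start codon. KIF2C, which corrects wrong attachments at centromeres, had none. KIF22, a chromokinesin, had 1 peak in HL60/MX2, a whole 49 bp exon of another transcript in its 5′UTR (chr16:29803787-29803835, score 393).

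Of the 13 transport kinesins, 8 were listed with a peak for HL60 (61.5%, 31.6-86.1%) and 10 for HL60/MX2 (76.9%, 46.2-95%). Both lists named 6 of them, HL60 only 2, HL60/MX2 only 4, and neither named KIF17, the homodimeric kinesin-2 of cilia and dendrites. They held 15 and 14 peaks, or 0.119 and 0.111 per kb of exon. Transport kinesins had a median of 26.0 merged exons and mitotic kinesins one of 21.5, and the intervals of their shares overlapped in both lines. Per kb of exon the classes differed by less than they did per gene.

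KIF1B, a carrier of mitochondria and synaptic vesicle precursors, had the most peaks of any kinesin, with 6 in HL60 and 1 in HL60/MX2. In HL60, 2 lay in the CDS of the longest coding transcript, in exon 12 of 48 (chr1:10338044-10338075, plus strand, 32 bp, score 51.3) and over the whole of exon 23 (chr1:10383942-10384120, 179 bp, score 243). The other 4 were in the 3′UTR of other coding transcripts, at chr1:10365290-10365559 (score 92.6), chr1:10438663-10438893 (score 167), chr1:10439198-10439484 (score 134) and chr1:10440642-10441098 (score 239). The last 3 of them lay close to the 3′ end of the gene, which is at 10441661. The HL60/MX2 peak was in exon 25 (chr1:10386252-10386417, 166 bp, score 68.6), 2131 bp from the nearest HL60 peak and 221 nt from it in the mRNA. KIF1B also had the most exon sequence of the 13 kinesins named by both lists, 18915 bp.

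KIF1B is a kinesin-3, and that family, which includes KIF14, had a peak in 5 of 7 genes in HL60 (11 peaks) and in 7 of 7 in HL60/MX2 (12 peaks), where all genes stood at 26.4% and 28.5%. Its genes had 26 to 70 merged exons, against a median of 22.0 in all kinesins. KIF1A, the carrier of synaptic vesicle precursors along axons, had 1 HL60/MX2 peak in the 3′UTR of another transcript (chr2:241653223-241653467, 245 bp, score 216). KIF1C, which moves vesicles and supports podosomes, had 3 in HL60/MX2 and none in HL60, in exon 7 (93 bp, score 74.9), in exon 14 (133 bp, score 89.5) and at the stop codon in exon 23 of 23 (chr17:4927294-4927688, plus strand, 395 bp, score 144). All 3 scores of KIF1C lay in the lower part of the list.

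KIF13A and KIF13B move endosomes and vesicles. KIF13A had an HL60 peak in exon 38 of 40 (chr6:17772061-17772290, minus strand, 230 bp, score 344) and an HL60/MX2 peak over the whole of exon 20 (chr6:17805706-17805846, 141 bp, score 273). Only 152 bp of the HL60 peak fell in exon 38, and it lay near a stop codon of another coding transcript. KIF13B had HL60 peaks in exon 18 (chr8:29003791-29004057, minus strand, 267 bp, score 335) and exon 23 (29 bp, score 114), and an HL60/MX2 peak in exon 28 of 40 (66 bp, score 65.3). The exon 18 peak had only 163 bp in that exon and also lay near a stop codon of another coding transcript. The nearest peaks of the 2 lists were 2020 nt apart in the mRNA of KIF13A and 410 nt apart in that of KIF13B. KIF16B had, besides its HL60/MX2 peak in exon 5, an HL60/MX2 peak in the 3′UTR of another transcript (chr20:16253561-16253800, 240 bp, score 188) and an HL60 peak in exon 20 of 23 (chr20:16359607-16359815, 209 bp, score 211). Its HL60 peak held 5 matches of the GGAA motifs, where the exon 5 peak held none.

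Conventional kinesin (kinesin-1) is built on a heavy chain from KIF5A, KIF5B or KIF5C, and each line listed peaks in 2 of the 3 genes. KIF5B, the heavy chain made in most tissues, had only a 69 bp HL60/MX2 peak over exon 13 of 26, with a score of 55.0, the lowest of any kinesin peak in that list. KIF5A, a neuronal heavy chain, had only an HL60 peak in exon 4 (chr12:57957892-57957995, plus strand, 104 bp, score 394), at residues 98 to 132 of 1039. KIF5C, the other neuronal heavy chain, had 2 peaks in each list. In HL60 they were a 6 bp entry in an exon of another transcript (chr2:149791569-149791574, plus strand, score 1730.5) and an 84 bp peak in exon 9 of 26 (score 163). In HL60/MX2 they covered the whole of exon 22 (72 bp, score 169) and 262 bp of the 3′UTR (chr2:149881559-149881820, score 209). The 6 bp entry had the highest score of all kinesin peaks in HL60.

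In heterotrimeric kinesin-2, which builds cilia, KIF3A pairs with KIF3B or, in neurons, with KIF3C. KIF3A had an HL60 peak only, over a whole exon of another transcript near its start codon (chr5:132072467-132072620, 154 bp, score 114). KIF3B was in both lists, with a peak over the whole of exon 6 of 9 in HL60 (chr20:30914574-30914687, plus strand, 114 bp, score 153) and in exon 2 in HL60/MX2 (chr20:30898696-30898984, 289 bp, score 586). KIF3C had an HL60/MX2 peak only, in its 3′UTR (chr2:26151081-26151285, 205 bp, score 541). The HL60/MX2 scores of KIF3B and KIF3C were the highest of the transport class in that list after the KIF16B peak.

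Of the 12 other kinesins, 6 were listed with a peak for HL60 (50%, 21.1-78.9%) and 7 for HL60/MX2 (58.3%, 27.7-84.8%), with 11 and 8 peaks. KIF6, a kinesin of motile cilia, had 4 peaks in HL60, all coding, in exons 5 (chr6:39602625-39602732, minus strand, 108 bp, score 530.2), 8 (144 bp, score 447), 10 (104 bp, score 54.1) and 13 (219 bp, score 131) of 23. The last 3 of these covered whole exons. In HL60/MX2 it had 2, in exon 21 (58 bp, score 90.3) and in the 3′UTR (chr6:39300376-39300782, 407 bp, score 581). Both HL60/MX2 peaks lay downstream of all 4 HL60 peaks in the mRNA. The nearest peaks of the 2 lists were 194245 bp apart in the genome, the widest gap of any gene with a peak in both.

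KIF9, also of motile cilia and flagella, had an HL60 peak at chr3:47324275-47324609 (335 bp, score 292), of which 15 bp fell in the 5′UTR of the longest coding transcript. Its HL60/MX2 peak was 416 bp away in the 5′UTR of another transcript (chr3:47323630-47323858, 229 bp, score 119). This was the narrowest gap in the genome between the lists.

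KIF27, a relative of KIF7, had HL60 peaks in exon 4 of 18 (chr9:86518041-86518500, minus strand, 460 bp, score 114) and over the whole of exon 9 (156 bp, score 292), and an HL60/MX2 peak of 52 bp at exon 7 (chr9:86504134-86504185, score 1391). Of the HL60/MX2 peak, 35 bp fell in exon 7, and it lay near a start codon of another coding transcript. The exon 4 peak was the longest of all kinesin peaks. KIF7, a regulator of Hedgehog signalling at the ciliary tip, had none. KIF21B, a paralog of KIF21A in neurons and lymphocytes, had 1 peak in its 3′UTR in HL60/MX2 (score 74.1).

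KIF26B, which acts in kidney development, had HL60 peaks in exon 8 of 15 (chr1:245772568-245772604, plus strand, 37 bp, score 319) and in the 3′UTR (chr1:245867181-245867573, 393 bp, score 248). Its HL60/MX2 peak lay in the CDS part of exon 12 (chr1:245850468-245850869, 402 bp, score 548). KIF26A, a kinesin without motor activity, had 1 HL60/MX2 peak in the 3′UTR (score 95.6). KIF25 had 1 HL60 peak over a whole exon of another transcript (chr6:168418553-168418720, 168 bp, score 292). Of its length, 68 bp fell in the 5′UTR of the longest coding transcript.

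**Figure D2:**
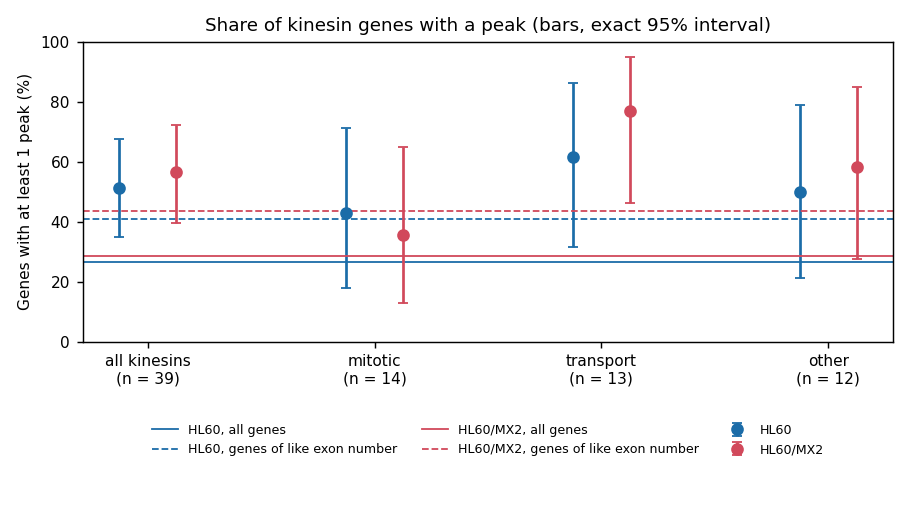
Share of kinesin genes with at least 1 listed peak (percent), in all 39 genes and in the 14 mitotic, 13 transport and 12 other kinesins, with exact 95% intervals, for HL60 (blue) and HL60/MX2 (red). Lines mark all protein-coding genes (26.4% and 28.5%) and genes of like exon number (40.8% and 43.4%), and the intervals of the classes overlap one another.

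Placed on the longest coding transcript were 29 of 35 kinesin peaks of HL60 and 24 of 30 of HL60/MX2. The windows of 100 nt to either side of a start or stop codon formed separate classes. In HL60, 26 of 29 lay in the CDS (89.7%, 72.6-97.8%), against 64.1% of all peaks placed this way. The 3′UTR held 1 (3.45%, 0.0873-17.8%, against 21.0%), the KIF26B peak, and the 5′UTR held 2, in KIF9 and KIF25. In HL60/MX2, 18 of 24 lay in the CDS (75%, 53.3-90.2%, against 59.9%), 5 in the 3′UTR (20.8%, 7.13-42.2%, against 18.2%) and 1 at a stop codon. These 3′UTR peaks were in KIF3C, KIF5C, KIF6, KIF21B and KIF26A. No peak was at a start codon of these transcripts, where 0 of 29 allows a share of up to 10.3% in HL60 and 0 of 24 up to 12.5% in HL60/MX2, against 7.05% and 11.9% of all peaks. The higher share of CDS in HL60 depended on the transcript chosen. With any coding transcript allowed, a peak took a start or stop codon class where one of them gave it. CDS came next, and a UTR class was used only where no transcript gave the others. Peaks off the longest coding transcript were then counted too. The CDS share was 60.0% (42.1-76.1%, against 47.5%) in HL60 and 53.3% (34.3-71.7%, against 43.6%) in HL60/MX2. The 4 KIF1B peaks in 3′UTRs of other transcripts then raised the HL60 count of 3′UTR peaks from 1 to 5.

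In the 13 kinesins named by both lists, no peak of a line overlapped one of the other line. Among all kinesin peaks, 0 of 35 in HL60 and 0 of 30 in HL60/MX2 were at shared positions, which allows shares of up to 8.57% and 10.0%, where 6.13% and 6.09% of the lists were shared. At the level of genes, 0 of these 13 kinesins held a shared position, which allows up to 23.1%, where 19.1% of all genes named by both lists held one. Absence of shared positions was therefore not distinguishable from the rest of the lists at this number of peaks. The nearest peaks of the 2 lists were between 416 bp (KIF9) and 194245 bp (KIF6) apart in the genome, with a median of 11354 bp. For the 12 genes with peaks of both lists on the longest coding transcript, the smallest gap in the mRNA ran from 18 nt in KIF21A to 2494 nt in KIF26B, with a median of 388 nt. After KIF21A, the smallest gaps were 99 nt in KIF14, 221 nt in KIF1B, 239 nt in KIF27, 344 nt in KIF3B and 365 nt in KIF18A, each between peaks in different exons. Overlap was scored in the genome, and the gaps were not set against the size of the RNA fragments. Whether the closest pairs are separate sites was not tested.

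**Figure D3:**
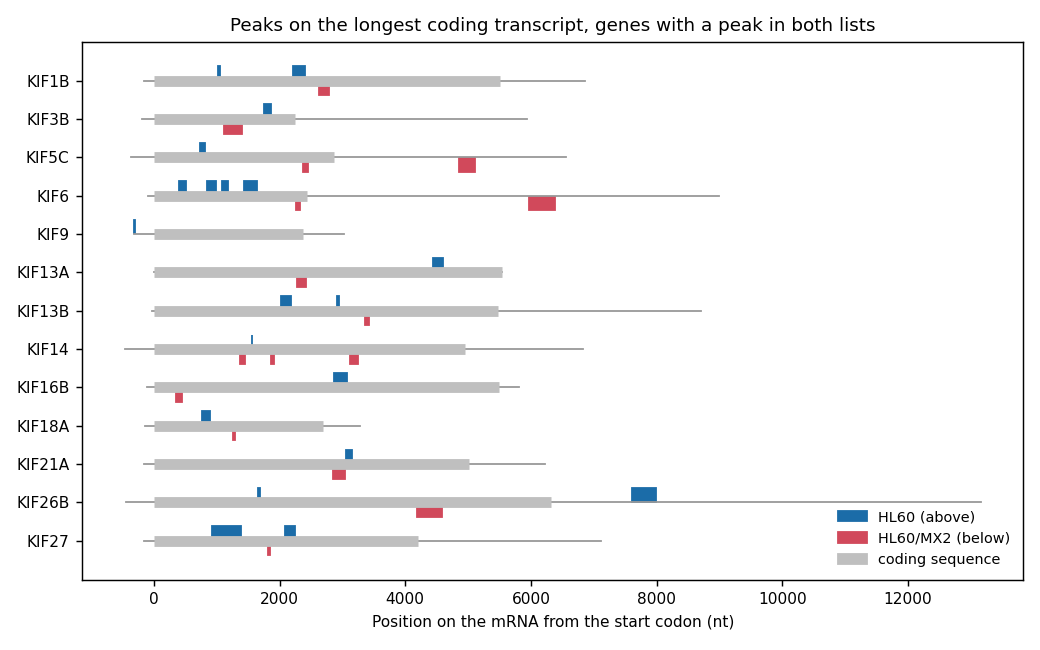
Position of the peaks on the longest coding transcript (nt from the start codon) of the 13 kinesin genes named by both lists, with HL60 above and HL60/MX2 below the transcript and the CDS as the thick grey bar; peaks in other transcripts are not drawn, among them the HL60/MX2 peak of KIF9 and 4 HL60 peaks of KIF1B. No pair overlaps, and the closest pair is in KIF21A, 18 nt apart.

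Coding peaks were placed along the proteins, using the P-loop and the switch II motif that were found in 36 of the 39 kinesins and not in KIF25, KIF26A and KIF26B. A peak that touched any residue from the P-loop to the end of the switch II motif was counted between them. In HL60, 26 peaks covered coding residues, of which 2 lay before the P-loop (KIF2B and KIF20B), 5 between the P-loop and switch II and 18 after switch II. The remaining one was in KIF26B. In HL60/MX2, 19 peaks covered coding residues, with 0 before the P-loop, 4 between the loops, 14 after switch II and 1 in KIF26B. In most kinesins more residues lay after switch II than before it. Switch II began at residue 252 of 1845 in KIF13A, but at residue 447 of 673 in KIF2B. The counts were not set against the lengths of these parts, so they show no preference for a part. Between the P-loop and switch II lay the HL60 peaks of KIF5A, KIF6 (exon 5), KIF14, KIF15 (exon 8) and KIF18A, and the HL60/MX2 peaks of KIF1C (exon 7), KIF4B, KIF14 (exon 4) and KIF16B (exon 5). The median position of a peak was 40.2% of the way along the protein in HL60 and 47.4% in HL60/MX2. The peaks of KIF18A (residues 256 to 299, switch II from 258) and KIF4B (211 to 281, switch II from 240) reached past switch II and had their midpoints beyond it. Placed by the midpoint, 4 HL60 peaks lay between the loops and 19 after switch II, and 3 and 15 did so in HL60/MX2. KIF14 was the only gene with a peak in this stretch in both lists, at residue 519 in HL60 and residues 456 to 485 in HL60/MX2 of 1648.

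**Figure D4:**
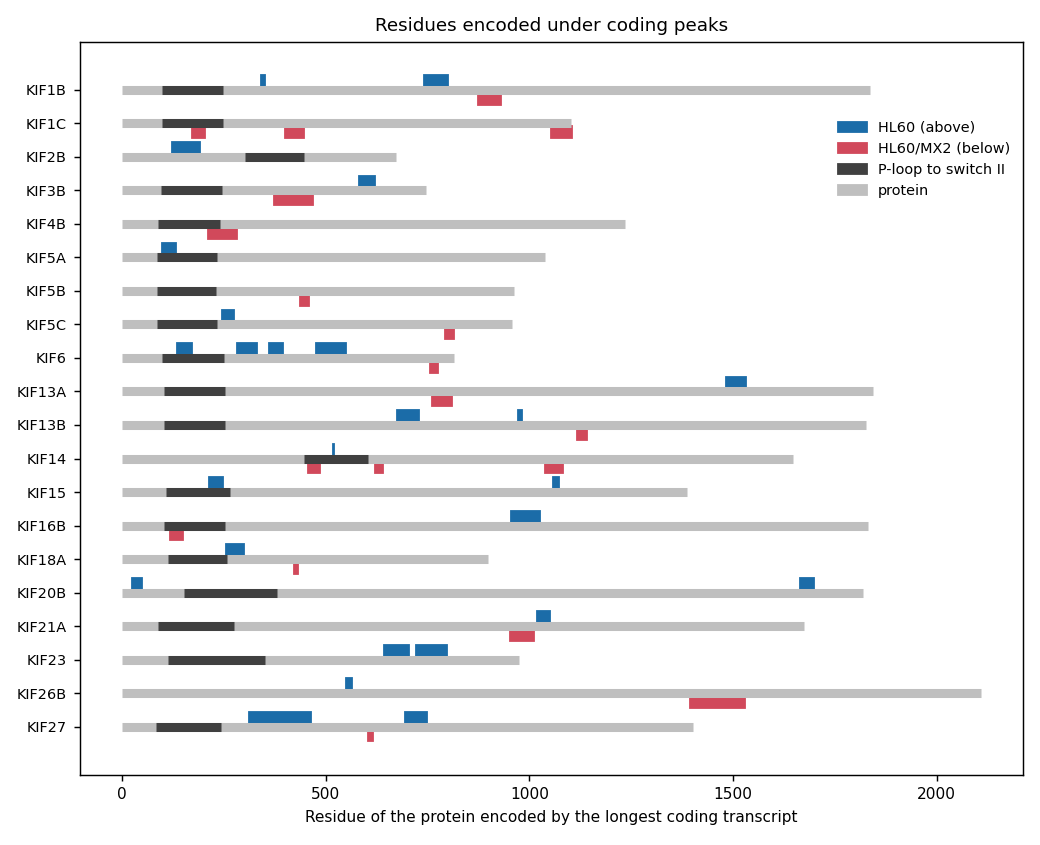
Residues encoded under the coding peaks of 20 kinesins, on the protein of the longest coding transcript (x axis, residue number), with HL60 above, HL60/MX2 below, and the stretch from the P-loop to switch II in dark grey. Most peaks lie to the right of the dark stretch, 18 of 26 in HL60 and 14 of 19 in HL60/MX2. Most of these proteins have more residues after switch II than before it, and the counts were not set against these lengths.

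The score of a peak is a value that the authors deposited on a scale not given in the sources used here, and it was compared only within a list. Kinesin peaks scored from 51.3 to 1730.5 in HL60 with a median of 239, against a list median of 197, and 20 of 35 (57.1%, 39.4-73.7%) were at or above that median. In HL60/MX2 they scored from 55.0 to 1779.8 with a median of 198, against a list median of 259.7, and 12 of 30 (40.0%, 22.7-59.4%) were at or above it. Both intervals include 50%, the share of the list itself. By class, the HL60 median was 199 for mitotic, 167 for transport and 292 for other kinesins, and the HL60/MX2 median was 303, 179 and 260.4. Transport kinesins had the lowest median of the classes in both lists, with 7 of 15 and 4 of 14 peaks at or above the list median. The mitotic kinesins had 5 of 9 and 4 of 8 there, and the others 8 of 11 and 4 of 8. The highest scores of each class in HL60 were 864 (KIF2B), 1730.5 (KIF5C) and 530.2 (KIF6), and in HL60/MX2 794 (KIF18A), 1779.8 (KIF16B) and 1391 (KIF27). Of these 6 top entries, those of KIF5C, KIF18A and KIF27 were 6, 26 and 52 bp long.

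**Figure D5:**
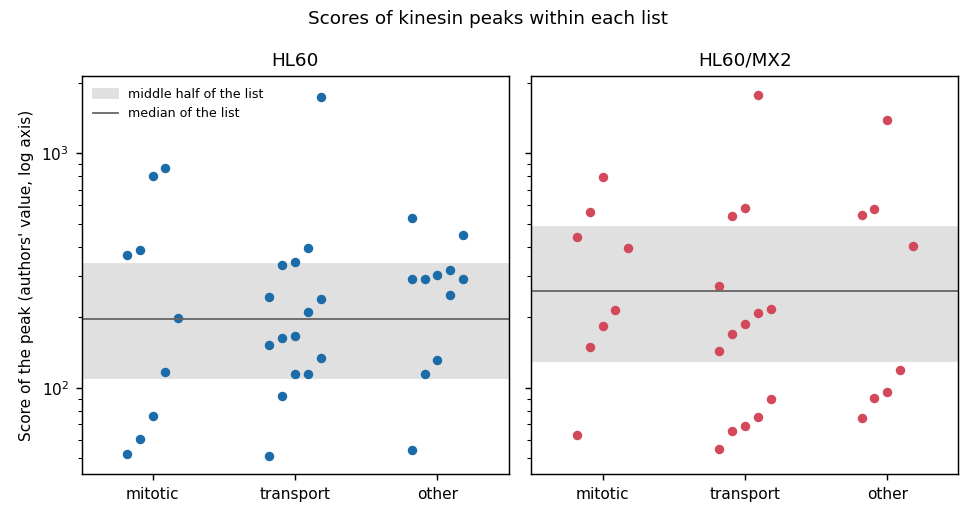
Scores of the kinesin peaks (authors' value, log axis) by class, with HL60 on the left and HL60/MX2 on the right; each point is a peak, the line is the median of the whole list (197 and 259.7) and the band its quartiles (109.9 to 336 and 129.9 to 485). Transport kinesins have 7 of 15 points at or above the line in HL60 and 4 of 14 in HL60/MX2.

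Kinesin peaks had a median length of 154 bp in both lists, against 129 bp in the whole HL60 list and 133 bp in that of HL60/MX2. One of their ends coincided with an exon end in 26 of 35 cases in HL60 (74.3%, 56.7-87.5%), against 70.6% of all assigned peaks, and in 21 of 30 in HL60/MX2 (70.0%, 50.6-85.3%), against 71.5%. A whole exon was covered by 12 HL60 peaks (34.3%, 19.1-52.2%, against 23.5%) and by 8 HL60/MX2 peaks (26.7%, 12.3-45.9%, against 20.8%). The mean GC content was 45.5% ± 8.89 (SD, n = 35 peaks) in HL60, against 46.0% in the list, and 49.7% ± 8.99 (SD, n = 30 peaks) in HL60/MX2, against 49.4%. A match of the CTG motifs on the gene strand was held by 18 of 35 HL60 peaks (51.4%) and by 18 of 30 HL60/MX2 peaks (60.0%), against 57.9% and 60.6% of listed peaks of like length. A match of the GGAA motifs was held by 19 of 35 (54.3%, 36.6-71.2%) and 16 of 30 (53.3%, 34.3-71.7%), against 45.3% and 45.5%. In exon ends, GC content and motifs the kinesin peaks thus lay close to the other peaks of their list, with each list value inside the kinesin interval where one is given.

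Kinesins act with light chains, adaptors and spindle proteins, and 32 such genes and kinesins of other names were set beside them. Among the 4 kinesins with other symbols, HL60 listed no peak (0-60.2%) and HL60/MX2 listed 3 genes (19.4-99.4%), where all genes stood at 26.4% and 28.5%. The intervals overlap widely and include these shares, so no difference between the lines can be read from 4 genes. CENPE, which moves chromosomes to the spindle equator, had 3 coding HL60/MX2 peaks with scores of 1184 in exon 15, 51.5 in exon 27 and 315 in exon 43 of 49. KIFC1 and KIFC2 had 1 each.

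Of the 13 transport partners, 7 were listed with a peak for HL60 (11 peaks) and 8 for HL60/MX2 (17 peaks). The shares of 53.8% (25.1-80.8%) and 61.5% (31.6-86.1%) have intervals that include the 40.8% and 43.4% of genes of like exon number to kinesins, where all genes stood at 26.4% and 28.5%. TRAK2, which links conventional kinesin to mitochondria, had 4 and 2 peaks, and those in exon 4 shared a position, at chr2:202265794-202265817 in HL60 (score 57.8) and chr2:202265774-202265817 in HL60/MX2 (score 475). SPAG9 (JIP4), a cargo adaptor, had 6 peaks for HL60/MX2 and 1 for HL60. MAP7, which recruits conventional kinesin, had 2 in each list. KIFAP3, the non-motor subunit of heterotrimeric kinesin-2, had 1 in HL60 (score 189.8) and 2 in HL60/MX2 (scores 636 and 72.0).

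Of the 15 mitotic partners, 5 were listed with a peak for HL60 (6 peaks) and 6 for HL60/MX2 (10 peaks). These are shares of 33.3% (11.8-61.6%) and 40.0% (16.3-67.7%), near the 26.4% and 28.5% of all genes and the 40.8% and 43.4% of genes with the exon number of kinesins, and all of these values lie inside the intervals. INCENP, the scaffold of the chromosomal passenger complex that KIF20A carries, had none in HL60 and 3 in HL60/MX2, in the adjacent exons 14, 15 and 16 with scores of 3100.0, 3100.0 and 2683. The score 3100.0 was the highest in the list. CIT, the citron kinase that works with KIF14, shared a position in its 3′UTR, at chr12:120125329-120125818 in HL60 (score 212) and chr12:120125801-120126011 in HL60/MX2 (score 934). These CIT peaks overlapped at their edges only. CKAP5, a microtubule polymerase, shared a position at its start codon in exon 1, at chr11:46867771-46867859 in HL60 (score 235) and chr11:46867771-46867829 in HL60/MX2 (score 122).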

How the data were processed

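The authors trimmed reads with cutadapt (1.9.3), aligned them to hg19 with HISAT2 (2.0.4), called peaks with MACS, whose version and settings are not given in the sources used here, and kept those that touch an exon of a protein-coding gene. The submitters' processing notes also name STAR. Each deposited list holds the position of each peak, its strand, its numbered name and a score, as the authors deposited them. Starts were turned to count from 1.

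Genes were those of GENCODE release 44 placed on hg19. Each peak went to the protein-coding gene whose same-strand exons it covered most, by 1 bp or more. Like length means within 20% of a peak's length. The P-loop was searched as a glycine, any run of 4 residues, a glycine, a lysine and a serine or threonine. A position was shared when peaks of both lists on 1 strand overlapped by 1 bp or more. A count of 0 is given with the limit of 3 counts.

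The kinesin genes, their classes and the 32 partners were chosen with earlier results of these data known, from textbook roles. Values were to be given for genes with a peak in both lists, genes with 3 or more peaks, the highest score of each class in each list and overlapping peaks. The remaining kinesins with a peak, the sequences of KIF21A, KIF4B and KIF4A, the comparison with genes of like exon number and the placement of residues by midpoint were added after the values were seen. Alternatives changed the assignment, the score and length minimum, the transcript, the classes and the overlap. Python 3.11.15, numpy 2.4.6, scipy 1.17.1, pysam 0.24.0, biopython 1.88 and matplotlib 3.10.9 were used. On simulated data, 97.1% of 1000 windows drawn over 19833 genes were given to their gene and 100% to their region. For the region the true transcript was supplied and the same class limits were used. The 100% is thus a check of the code and not of accuracy on real peaks.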

Additional observations from a re-analysis of the deposited data

How the results depend on the processing

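Of 55 alternative values, 48 stayed within 1.5 times the count, or inside the 95% interval of the share, that was reported. Several of the 48 could not have moved, so the tally is no measure of robustness. With 0 shared positions at 1 bp, a stricter overlap or a score minimum could only give 0. Moving KIF2A could not change the transport counts, nor moving KIF21A and KIF21B the mitotic counts. Leaving out KIF4B could not change the HL60 count. With peaks at or above the list median score only, the HL60 list held 20 kinesin peaks in place of 35. The HL60/MX2 list then held 12 peaks in 12 genes in place of 30 in 22, among them 4 transport genes in place of 10. A minimum at the list median removes a large part of any set of peaks by construction, so lower counts were to be had in any case. With any coding transcript, the CDS share in HL60 was 60.0% in place of 89.7%. The fall is in part by construction, since start and stop codon classes then take precedence. Peaks off the longest coding transcript are also counted then. The 3′UTR share in HL60 rose from 3.45% to 14.3%, still inside its wide interval, with KIF1B peaks in 3′UTRs of other transcripts counted. Among genes of like exon number, chosen after seeing the data, the share of genes with a peak was 40.8% in HL60 and 43.4% in HL60/MX2, against 26.4% and 28.5% of all genes. No paired analysis was possible because each line has 1 library and no value comes from a test. The small number of kinesin peaks and the lack of replicates both limit the precision.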

Other observations

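Each peak name carries a running number that follows the order of positions, and most numbers between the listed peaks of a kinesin gene are not in the lists. In KIF1B, 38 numbers between the first and last listed HL60 peak were unlisted over 102567 bp, and in KIF26B 40 were unlisted over 94577 bp. In KIF6, 30 were unlisted over 94628 bp in HL60 and 2 over 12694 bp in HL60/MX2. In KIF16B, 57 were unlisted over 239671 bp in HL60/MX2. In KIF23, the HL60 peaks in exons 18 and 19 had consecutive numbers, with 0 unlisted between them. Per 100 kb, the unlisted numbers ran from 20.3 in KIF5C to 42.3 in KIF26B in HL60, leaving out KIF23, and from 15.8 in KIF6 to 43.5 in KIF2A in HL60/MX2. What the unlisted numbers stood for is not given in the sources used here.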
